A study of Mus musculus with 2 samples.

Results

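The 9 genes described here encode transcription factors that set the identity of macrophages and, among them, of alveolar macrophages, which live in the airspaces of the lung. They are Spi1, Cebpa, Cebpb, Runx1, Maf, Bach1, Bach2, Bhlhe40 and Bhlhe41, chosen by name out of 21887 protein-coding genes. The choice was made with earlier results of these data known, which limits comparisons of the 9 genes with all genes. Each locus was the gene body in RefSeq on mm10 plus 50 kb on each side, and every listed region sharing at least 1 bp with a locus was taken. The 9 loci covered 1561 kb and held 251 of 226476 regions of the interleukin-4 (IL-4) library and 167 of 165968 regions of the untreated library. At the outer edge of the loci, 1 Cebpa region in each library straddled the limit, with a fold of 5.17 in the IL-4 library and 2.98 in the untreated library. Fully inside, the nearest regions were 1 at Bhlhe41 in the IL-4 library (fold 2.55, 114 bp from the limit) and 1 at Cebpb in the untreated library (fold 1.97, 353 bp). Just outside lay 1 at Bhlhe41 in the IL-4 library (fold 2.85, 11 bp away) and 1 at Maf in the untreated library (fold 2.21, 2 bp away).

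The cells were wild-type mouse alveolar macrophages taken from bronchoalveolar lavage fluid, either given IL-4 at 20 ng/ml for 4 h or left untreated. CUT&Tag was done with an antibody against PHLPP1, a phosphatase best known for acting on the kinase AKT. In CUT&Tag a transposase tethered to the antibody inserts sequencing adapters into nearby DNA, so that regions of many fragments mark where the antibody was held. Each group was 1 library, so differences between the libraries carry no test and no replicate error. The number of mice behind a library was not given in the sources used here, no library with a control antibody was analysed here, and signal that did not come from PHLPP1 cannot be told apart from signal that did.

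Macrophage identity rests on factors that act together at enhancers. PU.1 (encoded by Spi1), the C/EBP factors and RUNX1 open chromatin and bind side by side in myeloid cells, while the large MAF and the BACH factors, both bZIP proteins, bind related elements. BHLHE40 and BHLHE41 bind E-boxes as repressors and, in mouse alveolar macrophages, maintain self-renewal and keep genes of other cell types off. IL-4 drives alternative activation of macrophages through STAT6, which acts on enhancers that the lineage factors have opened.

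RefSeq promoters on GRCm38.p6, spanning 250 bases before to 50 bases after a transcription start, were found for 6 of the 9 genes, with 7 promoters since Runx1 has a distal and a proximal one. All 7 are shown because 6 of the 7 lay under a listed region in both libraries, among them the strongest gene-end regions described below. Capitals mark matches on either strand to any of 10 motifs. Those of the lineage factors were AGGAAGT for PU.1 and its relatives, TTGCNNAA for the C/EBP family, TGACTCA for AP-1 and related bZIP proteins, TGCTGA as part of a MAF recognition element, TGTGGT for RUNX proteins, and the E-box CACGTG, the site type of the basic helix-loop-helix repressors. The signal of IL-4 was represented by the STAT6 motif TTCNNNNGAA. General promoter elements were the GC box with the letters GGGCGG, the CCAAT box, named for its letters, and the TATA box searched as TATAAA. All sequences run 5′ to 3′ on the gene's strand, and Cebpa is at chr7:35119043-35119342 (plus strand), Cebpb at chr2:167688665-167688964 (plus), Bach1 at chr16:87698704-87699003 (plus), distal Runx1 at chr16:92826025-92826324 (minus), proximal Runx1 at chr16:92697280-92697579 (minus), Bhlhe41 at chr6:145865371-145865670 (minus) and Bach2 at chr4:32417185-32417484 (plus).
Cebpa: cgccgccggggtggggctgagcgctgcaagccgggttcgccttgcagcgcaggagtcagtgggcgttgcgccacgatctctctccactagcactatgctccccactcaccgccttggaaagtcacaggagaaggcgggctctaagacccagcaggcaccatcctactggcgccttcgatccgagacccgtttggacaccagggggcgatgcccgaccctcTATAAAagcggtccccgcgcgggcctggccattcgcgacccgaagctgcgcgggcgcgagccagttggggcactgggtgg
Cebpb: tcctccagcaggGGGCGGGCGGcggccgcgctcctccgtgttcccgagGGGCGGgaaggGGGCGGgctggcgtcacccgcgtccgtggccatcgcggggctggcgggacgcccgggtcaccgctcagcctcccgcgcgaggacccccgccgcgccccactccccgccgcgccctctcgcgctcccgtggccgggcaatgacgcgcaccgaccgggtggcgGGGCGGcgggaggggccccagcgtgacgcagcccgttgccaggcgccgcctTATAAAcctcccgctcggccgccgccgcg
Bach1: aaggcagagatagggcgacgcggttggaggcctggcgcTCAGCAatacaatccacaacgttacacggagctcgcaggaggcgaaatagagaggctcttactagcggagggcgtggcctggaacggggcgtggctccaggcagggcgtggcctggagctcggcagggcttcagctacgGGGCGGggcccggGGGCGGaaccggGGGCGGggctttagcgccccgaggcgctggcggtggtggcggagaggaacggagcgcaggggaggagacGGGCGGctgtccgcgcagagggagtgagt
Runx1 distal: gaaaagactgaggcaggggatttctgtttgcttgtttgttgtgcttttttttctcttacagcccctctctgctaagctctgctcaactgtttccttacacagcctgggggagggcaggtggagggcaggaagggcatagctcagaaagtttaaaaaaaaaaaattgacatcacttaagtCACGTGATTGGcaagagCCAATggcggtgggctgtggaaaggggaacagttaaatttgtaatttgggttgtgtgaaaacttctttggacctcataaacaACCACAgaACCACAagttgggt
Runx1 proximal: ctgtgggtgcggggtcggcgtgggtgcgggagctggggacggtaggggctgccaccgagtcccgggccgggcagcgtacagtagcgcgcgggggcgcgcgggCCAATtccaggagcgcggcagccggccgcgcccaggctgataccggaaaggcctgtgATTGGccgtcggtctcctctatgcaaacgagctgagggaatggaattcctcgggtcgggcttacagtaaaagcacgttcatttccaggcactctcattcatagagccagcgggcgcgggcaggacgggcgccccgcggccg
Bhlhe41: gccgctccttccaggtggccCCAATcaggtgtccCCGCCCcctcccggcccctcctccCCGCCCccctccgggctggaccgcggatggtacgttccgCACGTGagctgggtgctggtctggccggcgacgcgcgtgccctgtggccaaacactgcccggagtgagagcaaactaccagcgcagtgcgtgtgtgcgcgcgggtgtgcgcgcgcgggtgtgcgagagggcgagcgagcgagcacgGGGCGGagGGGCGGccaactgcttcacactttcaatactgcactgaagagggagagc
Bach2: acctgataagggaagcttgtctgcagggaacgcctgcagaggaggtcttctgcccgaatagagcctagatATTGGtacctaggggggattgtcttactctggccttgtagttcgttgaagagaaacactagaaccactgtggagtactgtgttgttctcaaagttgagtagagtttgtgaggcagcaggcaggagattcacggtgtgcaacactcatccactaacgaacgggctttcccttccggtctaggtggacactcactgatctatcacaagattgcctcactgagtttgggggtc

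The promoters under a region were mostly rich in G and C. Those of Cebpa, Cebpb, Bach1, Bhlhe41 and the proximal Runx1 promoter held 67.3%, 80.7%, 69.7%, 70.7% and 69.0% G and C and 29, 50, 31, 32 and 35 CpG dinucleotides, against medians of 52.7% and 7 over all 32851 promoters of the table. The distal Runx1 promoter was covered in both libraries although it held 45.0% G and C and only 2 CpG. Bach2 was the uncovered promoter, with 50.3% G and C and 7 CpG. It starts transcription inside the gene as RefSeq outlines it, and its nearest region lay 1.78 kb away in the IL-4 library (fold 2.37) and 1.88 kb away in the untreated library (fold 2.55). Of all promoters in the table, 41.8% had a region in the IL-4 library and 32.9% in the untreated library.

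The motif matches differed from promoter to promoter. GC boxes were present in 35.7% of all promoters and in 46.2% of those of protein-coding genes. They numbered 4 at Bach1, 4 at Bhlhe41 and 5 at Cebpb, where 1 pair of them overlapped. The letters of the TATA box, present in 13.6% of promoters, stood in those of Cebpa and Cebpb. At Cebpa they lay 30 bases before the transcription start, but at Cebpb 22 bases after it. CCAAT boxes, present in 37.4%, numbered 2 in each Runx1 promoter, 1 at Bhlhe41 and 1 at Bach2. Matches to motifs of the members' own families were few. The distal Runx1 promoter held 2 RUNX matches (16.8% of promoters hold 1 or more), 29 and 37 bases after the start, and an E-box (7.15%). Bhlhe41 held an E-box, and Bach1 held 1 match to part of a MAF recognition element (19.5%). No promoter of the 7 held the letters of the PU.1, C/EBP, AP-1 or STAT6 motif, which 9.35%, 10.8%, 5.20% and 6.95% of all promoters hold.

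With all regions of both lists and 50 kb flanks, each of the 9 loci held more regions in the IL-4 library than in the untreated library. With the lists cut to equal length, Bach2 had 11.6 regions per 100 kb in the IL-4 library and 12.3 in the untreated library, while the other 8 loci were still higher with IL-4. Over the gene bodies alone, Spi1, Cebpa, Cebpb, Maf and Bhlhe40 had equal numbers in both libraries, which for Maf was 0. The ratio of region numbers was 1.5 over the 9 loci together, against 1.49 over all regions within 50 kb of a protein-coding gene. The whole IL-4 list was itself 1.36 times as long as the untreated list, and its constant background was 1.14 times as high (15.9 fragments in the IL-4 library and 13.9 in the untreated library). The excess at the 9 loci was thus near that of genes in general. Among single loci the ratio was lowest at Cebpb (1.24) and highest at Bhlhe40 (2.50), and over 20866 protein-coding loci built in the same way it had a median of 1.67 with quartiles of 1.25 and 2.21.

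Per 100 kb, Cebpa and Cebpb were the densest loci. Cebpa held 26.3 regions per 100 kb in the IL-4 library and 14.6 in the untreated library, and Cebpb held 25.6 in the IL-4 library and 20.7 in the untreated library. Both genes are short, so nearly all of their loci is flank. The other 7 loci ranged between 11.2 (Bach1) and 16.3 (Bach2) in the IL-4 library and between 5.64 (Bhlhe40) and 12.3 (Bach2) in the untreated library. Over all protein-coding loci the median was 11.9 in the IL-4 library, with quartiles of 6.41 and 17.7, and 6.54 in the untreated library, with quartiles of 3.81 and 10.2. In each library 8 of the 9 loci were above that median, the exceptions being Bach1 in the IL-4 library and Bhlhe40 in the untreated library. With 1 library a group, the order of neighbouring loci cannot be set against an error.

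**Figure D1:**
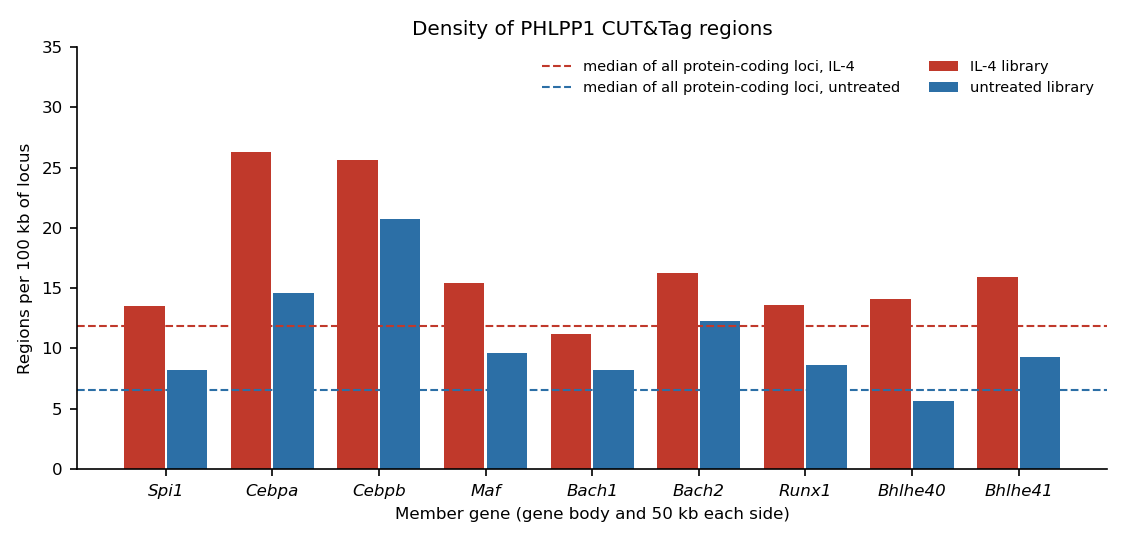
Listed regions per 100 kb of locus for each of the 9 genes in the IL-4 and the untreated library, with dashed lines at the median over the loci of all protein-coding genes in each library. Cebpa (26.3 in the IL-4 library) and Cebpb (25.6) stand above the others. With the full lists and flanks each locus is higher in the IL-4 library, but at equal list lengths Bach2 is at 11.6 with IL-4 and 12.3 without.

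The untreated regions of these loci were largely found again in the IL-4 library. Of the 251 IL-4 regions, 136 (54.2%, exact 95% interval 47.8 to 60.5) shared at least 1 bp with an untreated region, and of the 167 untreated regions, 141 (84.4%, 78.0 to 89.6) shared at least 1 bp with an IL-4 region. The whole lists gave 45.6% for the IL-4 library and 62.9% for the untreated library, and regions within 50 kb of any protein-coding gene gave 44.7% for IL-4 regions and 67.5% for untreated regions. These intervals are Clopper-Pearson intervals and cover counting error only, since neighbouring regions are not independent. At Spi1, Runx1 and Bhlhe40 no untreated region was without an IL-4 counterpart. Bach2 held 14 of the 26 regions found in the untreated list alone, and 32 of the 115 found in the IL-4 list alone.

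Regions found in 1 library alone were weak and narrow. The fold, by which the authors give summit pileup relative to background in the same library, had a median of 2.19 among the IL-4 regions found alone and 2.02 among the untreated regions found alone. Shared regions had medians of 2.66 in the IL-4 library and 2.41 in the untreated library. The highest fold of any region found alone was 4.13 in the IL-4 library, inside Runx1, and 2.36 in the untreated library, above Maf. Shared regions had a median width of 454 bp in the IL-4 library and 347 bp in the untreated library, and those found alone 317 bp in the IL-4 library and 249 bp in the untreated library. The whole lists showed the same order, with median widths of 403 bp (IL-4) and 343 bp (untreated) for shared regions and 283 bp (IL-4) and 253 bp (untreated) for those found alone.

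Strong regions made up a larger share of these loci than of the whole lists. A fold of 3 or more was reached by 64 IL-4 regions (25.5%, 20.2 to 31.4) and 29 untreated regions (17.4%, 11.9 to 24.0), where the whole lists gave 12.9% for the IL-4 library and 9.12% for the untreated library. Near protein-coding genes the shares were 14.7% in the IL-4 library and 10.8% in the untreated library. All 29 untreated regions of that strength had an IL-4 counterpart of any fold. Of the 64 IL-4 regions, 8 had no untreated counterpart. In the whole untreated list at least 14981 of 15128 regions of that strength had an IL-4 counterpart, so the 29 were like strong regions in general. The matching share for the whole IL-4 list was not computed, so whether 8 of 64 is usual is not known. A region of fold 5 or more stood in 8 of the 9 loci in the IL-4 library (all but Maf) and in 4 in the untreated library (Spi1, Cebpa, Cebpb and Bach2). Among all protein-coding loci the shares were 48.7% in the IL-4 library and 24.3% in the untreated library, and long loci such as Bach2 have more chances to hold one. In the untreated library, those of Spi1 and Bach2 stood at ends of Slc39a13 and Casp8ap2, and that of Cebpb inside Tmem189. Over the gene bodies alone, Cebpa, Bach1 and Bach2 reached a fold of 5 in the IL-4 library and only Cebpa in the untreated library. Regions at least 1 kb wide numbered 16 (6.37%, 3.69 to 10.1) in the IL-4 library and 6 (3.59%, 1.33 to 7.66) in the untreated library, against 2.32% of IL-4 regions and 1.51% of untreated regions near protein-coding genes.

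**Figure D2:**
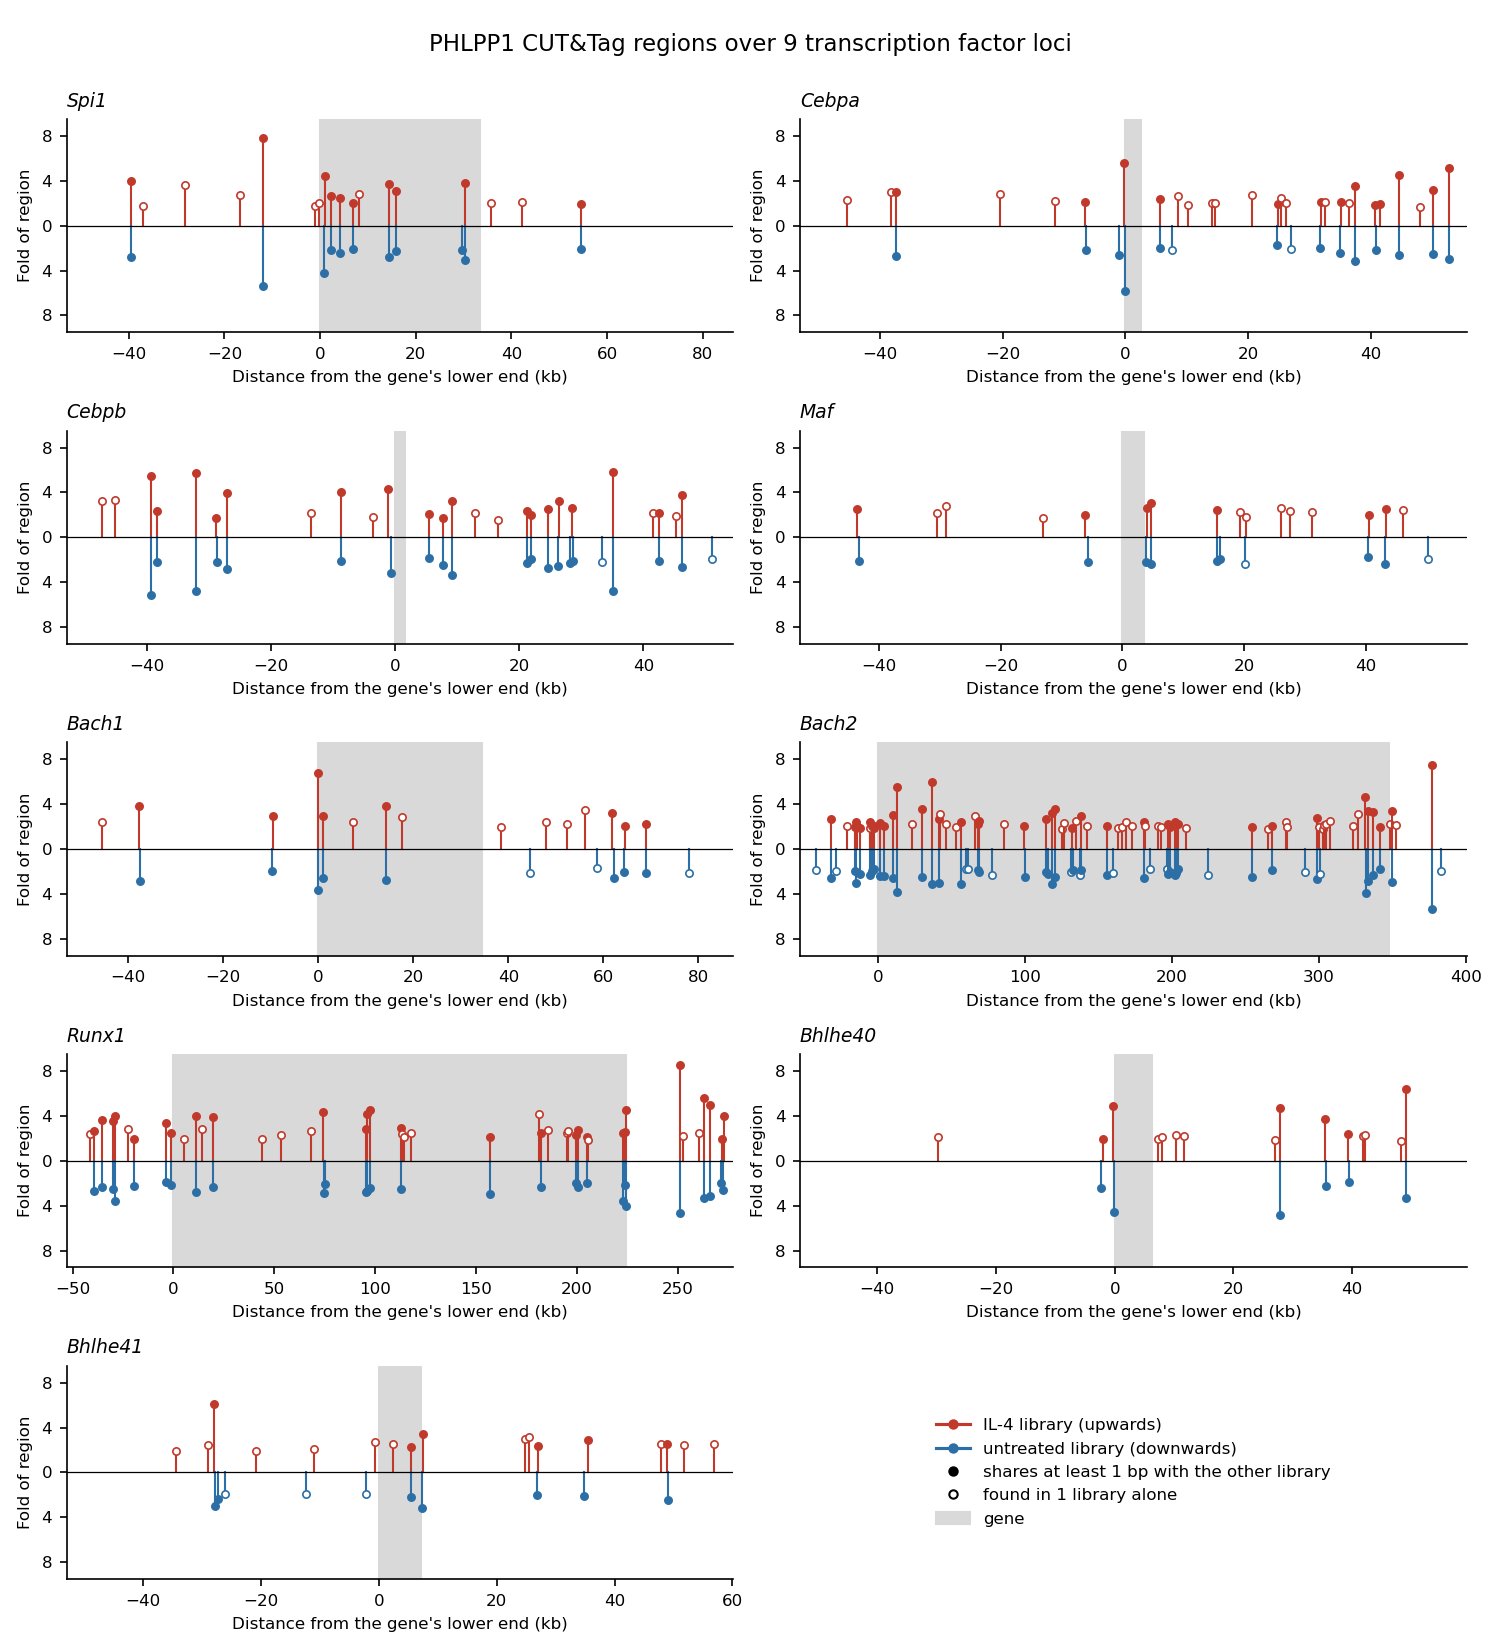
Position and fold of every listed region across the 9 loci, in kb from the lower-coordinate end of each gene, for the IL-4 and the untreated library. The tallest IL-4 regions are in the loci of Runx1 (fold 8.49), Spi1 (7.83) and Bach2 (7.47), and all 3 lie outside the bodies of those genes. Those in the Spi1 and Bach2 loci stand at ends of other genes, Slc39a13 and Casp8ap2.

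A gene is called marked where a region shares at least 1 bp with the window of 1 kb around either of its ends. All 9 genes were marked in the IL-4 library and 8 in the untreated library, where 70.4% of protein-coding genes were marked in the IL-4 library and 57.5% in the untreated library. Bach2 was the gene marked in the IL-4 list alone, a class that held 16.0% of protein-coding genes, and none of the 9 was marked in the untreated list alone (3.06% of genes). An end region of fold 3 or more was present for 8 of the 9 genes in the IL-4 library and for 7 in the untreated library. Of all protein-coding genes, 40.1% had such a region in the IL-4 library and 26.2% in the untreated library.

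**Figure D3:**
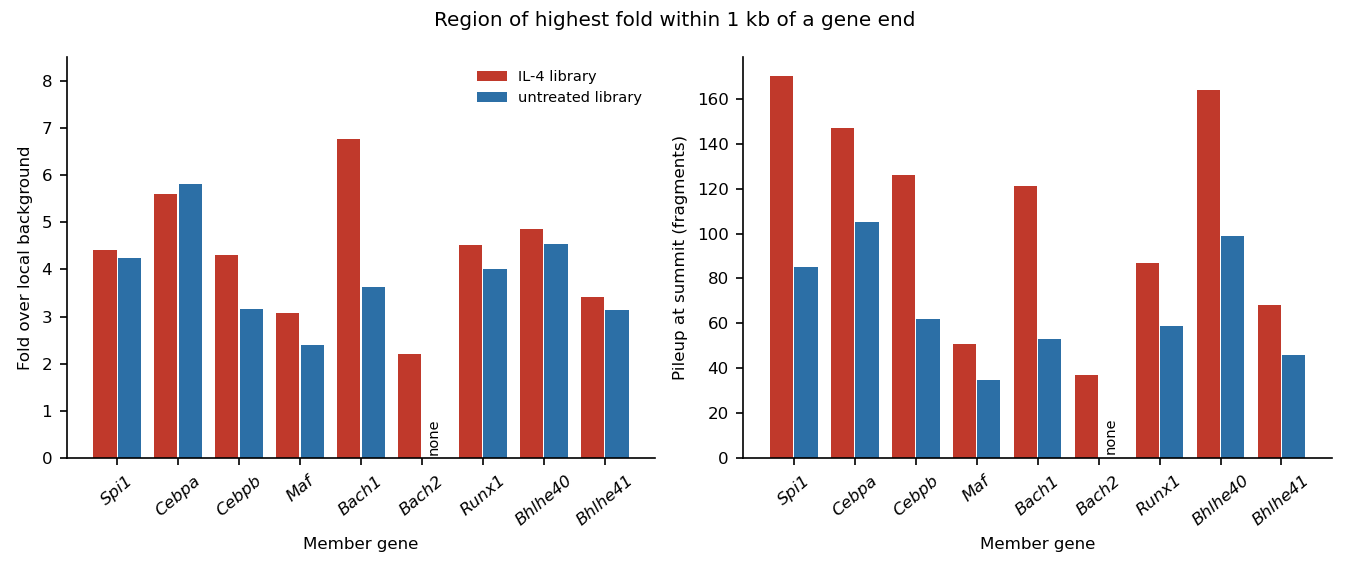
Fold and pileup (fragments at the summit) of the strongest region within 1 kb of an end of each gene, in the IL-4 and the untreated library. The pileup is higher in the IL-4 library at each gene marked in both, while the fold at Cebpa is 5.60 in the IL-4 library and 5.80 in the untreated library, and Bach2 has no untreated end region.

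Spi1 (chr2:91082374-91115759) encodes PU.1, the ETS factor without which macrophages do not form. Its locus held 18 regions in the IL-4 library and 11 in the untreated library, and all 11 untreated ones were shared. The region at its lower end, 91082557-91083596 in the IL-4 library and 91082439-91083572 in the untreated library, had nearly equal folds of 4.42 in the IL-4 library and 4.25 in the untreated library. Its pileup, the number of fragments over the summit, was 170 in the IL-4 library and 85 in the untreated library. The local background under it differed in the same direction, at 37.7 fragments in the IL-4 library and 19.2 in the untreated library. A pair of weaker IL-4 regions (folds 1.76 and 2.03) beside the lower end had no untreated counterpart. The strongest region of the locus was not at Spi1 itself but 11.9 kb below its lower end, at an end of Slc39a13, a zinc transporter gene, and of the lncRNA Gm39874. It had a fold of 7.83 and a pileup of 181 in the IL-4 library, and 5.36 and 79 in the untreated library. The strongest region found in the IL-4 list alone (91053843-91054322, fold 3.62) stood at an end of Psmc3, a proteasome subunit gene, and of Gm13778. Of the IL-4 regions, 5 of 18 lay at an end of another gene, and of the untreated regions 2 of 11.

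Cebpa (chr7:35119293-35121928) encodes C/EBPα, which commits progenitors to the granulocyte and monocyte line. Its promoter carried a region of fold 5.60 in the IL-4 library and 5.80 in the untreated library, the highest untreated fold at an end of any of the 9 genes. The pileup was 147 in the IL-4 library and 105 in the untreated library. In the IL-4 library a single region of 1350 bp (35118112-35119461) covered what the untreated list divides into 2 regions, 35118793-35119569 and a weaker one of fold 2.58 at 35118148-35118615. The summit stood 196 bp before the transcription start in the IL-4 library and 112 bp before it in the untreated library, inside the promoter printed above. Most of the other regions of the locus lay in the flank past the upper end, 20 of 27 in the IL-4 library and 11 of 15 in the untreated library. In mouse an enhancer active in myeloid cells is known downstream of Cebpa. A region 37.4 kb from the transcription start had a fold of 3.53 and a pileup of 85 in the IL-4 library, and 3.16 and 52 in the untreated library. Whether it covers that enhancer was not tested. Farther out, the regions at 35163589-35164105 (fold 4.52 in the IL-4 library, 2.58 for its untreated partner) and at 35171760-35172215 (5.17 in the IL-4 library, 2.98 for its untreated partner) differed more between the libraries. The strongest Cebpa region found in the IL-4 list alone had a fold of 2.96 (35080772-35081421), and in the untreated list alone 2.15 (35126874-35127127).

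Cebpb (chr2:167688915-167690432) encodes C/EBPβ, which mouse alveolar macrophages need and which drives Arg1 in alternative activation. A broad region over its promoter had almost the same borders in both libraries, 167687502-167689139 in the IL-4 library and 167687500-167689134 in the untreated library. Its fold was 4.31 in the IL-4 library and 3.17 in the untreated library, and its pileup 126 in the IL-4 library and 62 in the untreated library. The summit lay farther from the start in the IL-4 library, 1112 bp before it, than in the untreated library, 655 bp before it. Cebpb was the locus with the lowest ratio of region numbers, 1.24, with 26 in the IL-4 library and 21 in the untreated library, and with the most untreated regions of fold 3 or more for its length. Its strongest regions lay far from the gene. The region at 167723646-167724301, 33.6 kb past the upper end and at an end of Gm38464, had a fold of 5.86 in the IL-4 library and 4.76 in the untreated library. A pair inside Tmem189, a neighbouring gene, had folds of 5.76 and 5.50 in the IL-4 library against 4.76 and 5.10 in the untreated library, and 5.10 was the highest untreated fold of the locus. The strongest IL-4 region found alone (167643598-167644128, fold 3.36) stood at ends of Tmem189 and Gm31852, and the strongest untreated one found alone had a fold of 2.21 (167722141-167722373).

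Runx1 (chr16:92601466-92826074) encodes a RUNT-domain factor required for the emergence of blood cells and active in myeloid differentiation. The gene lies on the minus strand, so its upper end is its distal start. Its locus held 44 regions in the IL-4 library and 28 in the untreated library, and all 28 untreated ones were shared. Both promoters were covered in both libraries. At the distal promoter the fold was 4.51 in the IL-4 library and 4.02 in the untreated library, and the pileup 87 in the IL-4 library and 59 in the untreated library. At the proximal promoter the fold was 4.19 in the IL-4 library and 2.68 in the untreated library, and the pileup 84 in the IL-4 library and 39 in the untreated library. The pileup ratio was thus larger at the proximal promoter (2.15) than at the distal one (1.47), and the summits shifted by no more than 2 bp between the libraries.

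The Runx1 locus also held the highest fold of all 9 loci. The region 92851843-92853100, 26.5 kb upstream of the distal start and over no gene of the RefSeq table, had a fold of 8.49 and a pileup of 178 in the IL-4 library. Its untreated partner, 92851934-92852720, had 4.63 and 68 and was the highest untreated fold of the locus. The pileup ratio was 2.62. Other upstream regions had folds of 5.61 and 4.96 in the IL-4 library against 3.35 and 3.15 in the untreated library. The strongest region found in the IL-4 list alone in any of the 9 loci lay inside Runx1 at 92782317-92782845, with a fold of 4.13 and a pileup of 86. In mouse an enhancer of the first intron is known to act in blood stem cells. Regions 24.2 kb inside the distal start in the IL-4 library (fold 2.77) and 24.1 kb inside it in the untreated library (fold 2.35) were weak, and whether they cover that enhancer was not tested.

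Some regions of Runx1 went the other way. At 92824048-92824393, 1.86 kb inside the distal start, the fold was 2.46 in the IL-4 library and 3.62 in the untreated library, with pileups of 47 in the IL-4 library and 53 in the untreated library. At 92758177-92758635 the fold was 2.13 in the IL-4 library and 2.95 in the untreated library, with pileups of 35 in the IL-4 library and 43 in the untreated library. Its lower end was marked in the IL-4 list alone, but the IL-4 region there (92600130-92600486, fold 2.49) overlapped an untreated region (fold 2.15) that stopped short of the window. A further pair near the distal start (92824912-92825525 in the IL-4 library) had folds of 2.56 in the IL-4 library and 2.15 in the untreated library.

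Maf (chr8:115703253-115706894) encodes c-MAF, a large MAF factor that restrains the self-renewal of mouse macrophages. It was the weakest of the 9 loci, with a highest fold of 3.08 in the IL-4 library and 2.41 in the untreated library. Both values came from the same place, 115707769-115708422 in the IL-4 library, whose summit lay 1.13 kb past the upper end and whose edge entered the window. The pileup there was 51 in the IL-4 library and 35 in the untreated library. A second region nearer the upper end had folds of 2.61 in the IL-4 library and 2.21 in the untreated library. No region in the Maf locus reached a fold of 3 in the untreated library, and 1 did in the IL-4 library. Outside the ends, the strongest region found in the IL-4 list alone had a fold of 2.83 (115673860-115674387), and the strongest found in the untreated list alone a fold of 2.36 (115723294-115723511, over the lncRNA Gm30712).

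Bach1 (chr16:87698954-87733346) encodes a haem-regulated repressor of Hmox1 and other antioxidant genes. Among the strongest end regions of the genes marked in both libraries, that at its promoter had the largest difference in fold and the largest pileup ratio. The region 87698651-87699194 had a fold of 6.76 in the IL-4 library, and its untreated partner 87698614-87699121 had 3.62. The pileup was 121 in the IL-4 library and 53 in the untreated library, a ratio of 2.28. The background under it was 17.0 fragments in the IL-4 library and 13.9, the constant value, in the untreated library, so here the fold and the pileup moved together. The summit stood 101 bp before the start in the IL-4 library and 81 bp before it in the untreated library, near the cluster of GC boxes in capitals above. A further region, with its summit 0.934 kb inside the lower end in the IL-4 library and 1.02 kb inside it in the untreated library, had folds of 2.93 in the IL-4 library and 2.55 in the untreated library. The whole locus, the least dense of the 9 in the IL-4 library, held 15 regions in the IL-4 library and 11 in the untreated library. The strongest IL-4 region found alone had a fold of 3.44 (87754872-87755233, over Gm32925), and the strongest untreated one found alone a fold of 2.15 (87743366-87743627, with 1 other of equal fold, both over Gm32925).

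Bach2 (chr4:32238413-32586109) encodes a repressor that limits effector programmes in lymphocytes and is needed for normal surfactant handling by mouse alveolar macrophages. It is the longest of the 9 genes, at 348 kb, and its locus held 73 regions in the IL-4 library and 55 in the untreated library, 58 in the IL-4 library and 42 in the untreated library being inside the gene. Yet its ends were nearly bare. The upper end was marked in the IL-4 list alone by a region of 200 bp (32586643-32586842) with a fold of 2.2 (−log10 q 3.39). In the untreated library the nearest regions began 2.06 kb past the upper end (fold 2.95) and 1.28 kb inside the lower end (fold 2.40), so the call rests on the 1 kb window, and with a window of 2 kb all 9 genes were marked in both libraries. Within the gene, 12.8 kb from its lower end, lay the widest region of the 9 loci in each library, 1786 bp with a fold of 5.50 in the IL-4 library and 1905 bp with a fold of 3.83 in the untreated library. A narrower one 36.6 kb inside (32274761-32275430) had a fold of 5.93 in the IL-4 library and 3.15 for its untreated partner. The strongest region of the locus belonged to another gene, Casp8ap2, at whose end the fold was 7.47 in the IL-4 library and 5.30 in the untreated library. At 32294700-32295028 the fold was lower in the IL-4 library, 2.43, than in the untreated library, 3.08. The strongest regions found alone had folds of 3.14 in the IL-4 library (32280428-32280762) and 2.28 in the untreated library (32315958-32316218, with 2 others of equal fold), all inside the gene.

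Bhlhe40 (chr6:108660629-108666925) encodes a basic helix-loop-helix repressor that responds to many stimuli. The region at its lower end, 108659169-108660924 in the IL-4 library and 108659369-108660924 in the untreated library, had folds of 4.85 in the IL-4 library and 4.55 in the untreated library. The pileup was 164 in the IL-4 library and 99 in the untreated library, over local backgrounds of 33.0 fragments with IL-4 and 21.0 without, and the region also stood at an end of the lncRNA 0610040F04Rik. At the upper end a weak IL-4 region (fold 1.93) had no untreated partner. This locus had the highest ratio of region numbers, 2.50, with 15 in the IL-4 library and 6 in the untreated library, and all 6 untreated regions were shared. Its highest fold lay 42.7 kb past the upper end at 108709215-108710286, over no gene of the RefSeq table, at 6.38 with a pileup of 139 in the IL-4 library. The untreated partner (108709406-108710272) had 3.35 and 49, a pileup ratio of 2.84. A nearer one, 21.6 kb past the same end, was close in fold, at 4.67 in the IL-4 library and 4.83 in the untreated library, with pileups of 92 in the IL-4 library and 71 in the untreated library. The 9 regions found in the IL-4 list alone were weak, the strongest having a fold of 2.31 (108670502-108671079).

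Bhlhe41 (chr6:145858243-145865420) encodes the partner of BHLHE40, whose expression sets alveolar macrophages apart from most other mouse macrophages. Its promoter region, starting at 145865328 in both libraries, was 1560 bp wide in the IL-4 library and 1055 bp in the untreated library. It had a fold of 3.42 and a pileup of 68 in the IL-4 library, and 3.15 and 46 in the untreated library. The other end was marked in the IL-4 list alone (145857381-145857980, fold 2.73). As at Bhlhe40, the strongest region was distant, 27.9 kb below the lower end at 145830117-145831063. It had a fold of 6.11 and a pileup of 102 over a width of 947 bp in the IL-4 library. It covered 2 untreated regions, 1 of 291 bp with a fold of 3.02 and a pileup of 44 and 1 of 279 bp with a fold of 2.41 and a pileup of 35. The strongest regions found alone had folds of 3.20 in the IL-4 library (145883623-145883985) and 1.88 in the untreated library (145832136-145832390, with 2 others of equal fold).

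Pileups at shared regions give a closer comparison than the presence of a call. Each untreated region was paired with the IL-4 region that shared most of its bases, which gave 141 pairs over the 9 loci. The pileup was higher in the IL-4 library at 131 of them (92.9%), with a median ratio of 1.54 and quartiles of 1.29 and 1.91. The exceptions lay in Bach2, where 34 of 41 pairs were above 1, and Runx1, where 25 of 28 were. All shared regions of the lists had a median ratio of 1.27, with 85.4% above 1, and those within 50 kb of a protein-coding gene 1.31. These ratios are not scaled for depth, and more fragments per cell and more cells in a library cannot be told apart.

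Since the ratio varies with the strength of a region, each pair was also set against the median of untreated regions of like pileup. The 9 loci exceeded that median at 106 of 141 pairs (75.2%), and their median ratio over it was 1.20. All shared regions gave 48.5%, and those near protein-coding genes 53.7%. The loci were not alike in this. Bach2 had 23 of 41 pairs above that median (median ratio over it 1.07) and Maf 5 of 8 (1.09), while Cebpb had 18 of 19 (1.37). Regions at gene ends stood high everywhere, with 75.6% of 12432 pairs at protein-coding ends above it. At the ends of the 9 genes, 12 of 12 pairs were above it, with a median ratio of 1.53, close to the 1.56 of all protein-coding ends. At no end of a protein-coding gene, 91 of 125 pairs of the 9 loci (72.8%) were above it, with a median of 1.53, whereas regions near protein-coding genes but away from ends had 49.6% and a median of 1.27. The regions of the 9 loci at no protein-coding gene end thus had a median ratio near that of gene ends. They were not all distal, since regions inside the genes, such as that over the proximal Runx1 promoter, were among them. Pairs within a locus share their library and neighbourhood and are not independent, and no test was made.

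**Figure D4:**
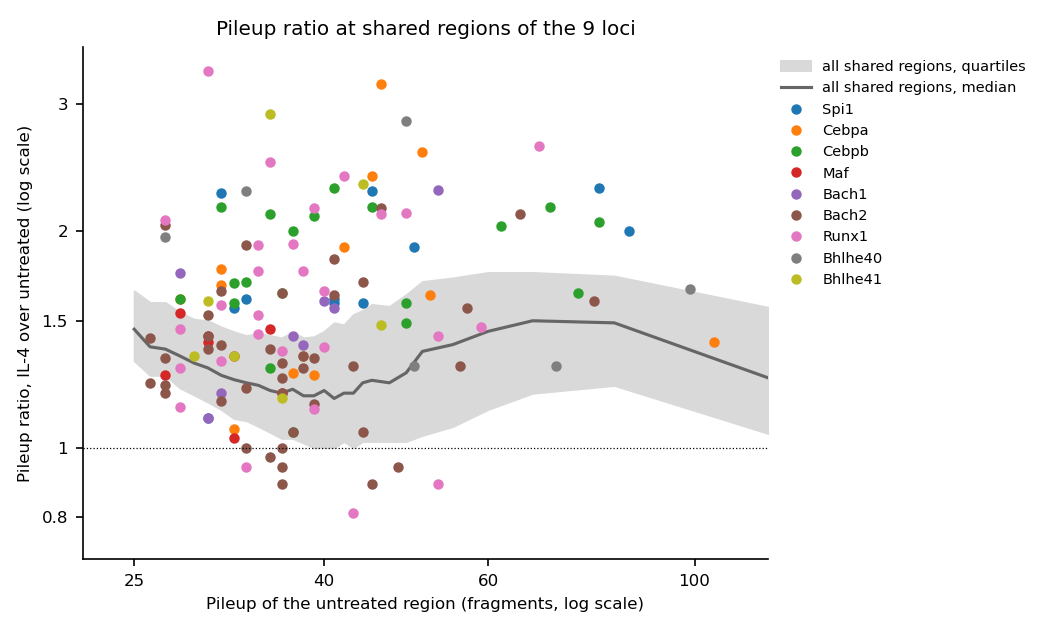
Pileup in the IL-4 library over that in the untreated library at each of 141 paired regions of the 9 loci, against the untreated pileup, both on log axes, with the median (line) and quartiles (grey band) of all shared regions of like pileup. Most points lie above 1 and above that median (106 of 141), with the highest ratio, 3.33, inside Runx1.

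By locus, the median ratio was highest at Bhlhe40 (1.81, 6 pairs), then Cebpb (1.70, 19), Cebpa (1.63, 13), Spi1 (1.61, 11), Runx1 (1.56, 28), Bach1 (1.5, 8), Bhlhe41 (1.48, 7), Maf (1.37, 8) and Bach2 (1.31, 41). Within most loci the pairs spread more widely than these medians did between loci. At Runx1 they ran between 0.81 and 3.33, at Bhlhe41 between 1.17 and 2.91, and at Maf between 1.03 and 1.54. Maf, which had the lowest highest fold in each library, thus also had one of the lower median ratios. The highest ratio, at an untreated region of fold 2.08 inside Runx1 (92676627-92676863), came from an IL-4 region that covered it together with a stronger untreated neighbour. The highest ratios at Bhlhe41 (2.91) and at Cebpa (3.20, at its lower end) arose in the same way.

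Other transcription factor genes were counted at their ends from 3 lists. Of 13 relatives of the 9 genes, 10 (76.9%) were marked in the IL-4 library and 7 (53.8%) in the untreated library, near the 70.4% with IL-4 and 57.5% without of all protein-coding genes. Cebpg, a C/EBP factor that lacks an activation domain and lies next to Cebpa on the chromosome, had the highest IL-4 end fold of this list, 6.82, and 5.50 in the untreated library, at a region shared with the end of Gm45095. Mafa had 6.48 in the IL-4 library and 5.52 in the untreated library. Cebpd went the other way, with 3.70 in the IL-4 library and 4.43 in the untreated library. Runx3 (fold 2.34), Mafg (2.02) and Spib (1.66) were marked in the IL-4 list alone, those of Mafg and Spib by regions that also stood at ends of Sirt7 and Pold1. Spic, Runx2 and Nrl were marked in neither library.

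Among 24 further macrophage factors, the IL-4 library marked 19 (79.2%, 57.8 to 92.9) and the untreated library 14 (58.3%, 36.6 to 77.9) at an end, and both intervals held the share of all protein-coding genes. Irf8, a partner of PU.1, was marked in the IL-4 list alone with a fold of 4.03, as were Gfi1 (3.08) and Tfec (3.02), a factor induced by IL-4 in mouse macrophages. Fli1, Hif1a, Lmo2, Myb and Nr4a1 were marked in neither. Of 24 factors of other lineages, 15 (62.5%) were marked in the IL-4 library and 10 (41.7%) in the untreated library. Klf1 (4.57), Ebf1 (3.26) and Hnf4a (2.13) led those marked in the IL-4 list alone, and Bcl11b (2.79) and Tbx5 (2.13) were marked in the untreated list alone. The end regions of factors of other lineages were mostly under a fold of 3. Over the genes of a list marked in both libraries, so that both medians are of the same genes, the median of the highest end fold was 4.47 with IL-4 and 3.82 without for 8 of the 9 genes, and 4.50 with IL-4 and 4.18 without for 7 relatives. It was 4.78 with IL-4 and 3.90 without for 14 other macrophage factors, 2.13 with IL-4 and 2.10 without for 8 factors of other lineages, and 4.0 with IL-4 and 2.94 without for 11919 protein-coding genes.

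**Figure D5:**
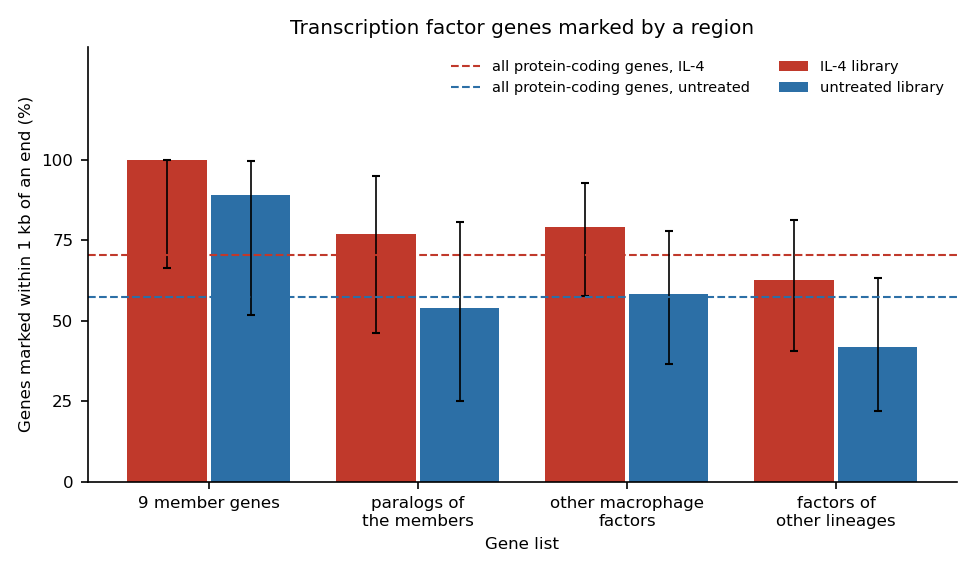
Percentage of genes marked at an end in the IL-4 and the untreated library for the 9 genes, their relatives, other macrophage factors, factors of other lineages and all protein-coding genes, with exact 95% intervals for the lists. The 9 genes reach 100% in the IL-4 library and 88.9% in the untreated library, with the interval of the untreated share running between 51.8% and 99.7%.

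As a check of the labelled cell type, 11 of 12 alveolar macrophage markers were marked in the IL-4 library and 10 in the untreated library, Chil3 in neither, where 70.4% of all protein-coding genes were marked with IL-4 and 57.5% without. Regions at marker genes are not levels of RNA, and markers of other cells were marked too. Lung epithelium had 9 of 10 marked in the IL-4 library and 4 in the untreated library, lymphocytes 4 of 6 with IL-4 and 1 of 6 without, granulocytes 3 of 6 with IL-4 and 2 of 6 without, and fibroblasts and endothelium 5 of 6 with IL-4 and 1 of 6 without. The highest end fold of any marker was at the granulocyte gene S100a8, 7.11 with IL-4 and 4.89 without. Among the alveolar macrophage markers it was 4.95 with IL-4, at Itgax, and 4.02 without, at Ear2. The part of other cells in the results was not tested.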

How the data were processed

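The authors deposited 1 list of regions for each library. Per the submitters' processing notes the tools included MACS2 2.2.7.1, Bowtie 0.12.8 and DiffBind, and the build mm10, without roles. Settings and controls are not stated there. The deposited fold is the authors' ratio of the summit pileup to the background of that library, which the values fit when 1 is added to both, and is not scaled between libraries. The deposited lists also hold −log10 p and −log10 q values, none of the −log10 p values being under 2.03 in the IL-4 list or 2.00 in the untreated list. The deposited score is the −log10 p times 10 without its decimals, and the deposited summit offset counts bp from the region start.

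Reads per library were not stated. The pileup and background of each region were recovered from fold and p, and 100% of the pileups of each list were whole within 0.05. The recovery was tested on simulated data. Genes and promoters were those of RefSeq on GRCm38.p6, which mm10 follows. The gene table gives no strand, so ends are called lower and upper by coordinate. Exon and intron positions were not analysed here. Like strength means 1 of 50 bins of untreated pileup. Named were the 9 genes, their regions within 1 kb of an end, and their strongest regions overall and in 1 library alone. Of each factor list, the 3 genes of highest −log10 q that 1 library alone marked were named, and genes marked in neither where these were 5 or fewer. Mafa, Cebpg and Cebpd, the wide Bach2 region, the lower-in-IL-4 regions and other regions outside this rule were chosen after their values were seen. The members and lists were chosen with earlier results of these data known. With 1 library a group no test was made. Alternatives covered q and fold limits, list length, flank, window, overlap rule and scaling. Software was scipy 1.17.1, pandas 2.3.3 and numpy 2.4.6 under Python 3.11.15, with matplotlib 3.10.9 for plots.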

Additional observations from a re-analysis of the deposited data

How the results depend on the processing

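Of 112 alternative values of the main results, 62 stayed near the value reported and 50 moved, and of 160 values for single genes 85 stayed and 75 moved. Each value was compared with its own main value, and a reversal was looked for only in the pileup ratio, where none was found. A change in the order of the libraries was not scored. Such a change occurred at Bach2 with equal list lengths (11.6 per 100 kb with IL-4 and 12.3 without). Limited to a −log10 q of 5 or more, the 9 loci held 126 IL-4 and 55 untreated regions. Of these, 72.2% (IL-4) and 100% (untreated) overlapped a region of any strength in the full list of the other library. Median widths were 498 bp (IL-4) and 482 bp (untreated), and medians per 100 kb were 9.0 (IL-4) and 3.70 (untreated). At a fold of 3 or more the loci held 64 IL-4 and 29 untreated regions. Of these, 87.5% (IL-4) and 100% (untreated) were shared, again with the full list of the other library. They were 612 bp (IL-4) and 591 bp (untreated) wide, with 3.76 (IL-4) and 1.87 (untreated) per 100 kb. With the lists cut to equal length, the IL-4 density was 11.6 per 100 kb and the untreated share 75.4%. Without a flank there were 105 IL-4 and 74 untreated regions, highest folds with medians of 4.69 (IL-4) and 3.96 (untreated), and 15.9 untreated regions per 100 kb. With 10 kb flanks there were 139 IL-4 and 95 untreated regions, 17.9 (IL-4) and 12.7 (untreated) per 100 kb, and folds of 4.54 (IL-4) and 3.89 (untreated). With 100 kb flanks there were 385 IL-4 and 255 untreated regions, folds of 7.47 (IL-4) and 5.36 (untreated), and 11.1 untreated regions per 100 kb. Asking that 50% of both regions overlap gave shares of 41.8% (IL-4) and 62.9% (untreated), and summits within 250 bp an untreated share of 74.9%. Marked relatives numbered 6 among IL-4 regions of fold 3 or more, and 11 and 12 in the untreated library with windows of 2 and 5 kb. Marked macrophage factors numbered 8 in the untreated library at a fold of 3 or more. Marked factors of other lineages numbered 5 (IL-4) and 4 (untreated) at the q limit, 3 (IL-4) and 0 (untreated) at the fold limit, 18 in the untreated library with a 2 kb window, and 23 (IL-4) and 20 (untreated) with a 5 kb window. The median pileup ratio of 1.54 was 1.35 over the ratio of constant backgrounds and 1.20 over regions of like strength. The cause of these changes was not tested beyond what each limit removes or adds. No paired analysis was possible because each group held 1 library.

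Without replicates, none of the differences has an error, and the absence of a call at this unstated depth does not show the absence of binding. The loci also hold other genes, and 29 IL-4 and 15 untreated regions lay at an end of one.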
